A study of Mus musculus with 5 samples.

Results

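The genes described here encode actin and the proteins that build, cut, bundle and anchor actin filaments, and they were followed in sorted bone marrow (BM) monocytes and neutrophils. They were taken from a list of 50 symbols, all of which were found among the 23234 gene symbols measured. The data are from 5 RNA-seq libraries, 1 per condition, of 7-week-old C57BL/6 mice of the genotype +/Ym1Venus, in which the fluorescent protein Venus reports expression of Ym1. At 48 h after intravenous LPS (100 µg per mouse), cells positive for Ly6C and CD115 were split by Venus into Ym1+Ly6Chi and Ym1-Ly6Chi monocytes. Naive monocytes were sorted as Ly6C+CD115+Venus- cells from untreated animals. Neutrophils were sorted as Ly6G+ cells 48 h after LPS (LPS neutrophils) and from untreated animals (naive neutrophils). The number of mice behind a library is unknown here. The unit is FPKM, a fragment count scaled for transcript length and sequencing depth, so levels of different genes can be set side by side. As each condition has a single library, no value has an error, no test was possible, and every difference describes a pair of libraries.

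Actin exists as a pool of monomers and as filaments, and a crawling leukocyte moves by assembling filaments at its front and taking them apart behind. The Arp2/3 complex starts branched filaments when proteins of the WASP and WAVE families activate it, whereas formins and Ena/VASP proteins lengthen unbranched filaments. Cofilin severs old filaments, capping proteins stop growth at filament ends, alpha-actinin, filamin and L-plastin cross-link filaments, and myosin II pulls on them. Talin, vinculin, kindlin-3 and the ERM proteins tie filaments to integrins and to the membrane. In neutrophils and monocytes this machinery serves crawling, adhesion and phagocytosis.

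The libraries matched their labelled cell types at defining markers, with limits that touch the results. Ccr2, a monocyte chemokine receptor gene, had an FPKM of 434 to 499 in the 3 monocyte libraries and of 0.99 to 1.13 in the neutrophil libraries, whereas the neutrophil protease gene Mmp9 had 3.86 to 11.8 and 2209 to 2349. All 12 markers of a monocyte list reached an FPKM of 1 in each monocyte library, and 6 and 5 did in LPS and naive neutrophils. Among them Cd14 was higher in LPS neutrophils (22.1) than in monocytes (10.9 to 12.2), and was at 3.11 in naive neutrophils. All 12 markers of a neutrophil list were at an FPKM of at least 1 in every library, and their summed FPKM was 1357 in naive monocytes, 2383 in Ym1- monocytes, 15939.8 in Ym1+ monocytes and 305008 and 310174 in LPS and naive neutrophils. The 11 platelet and megakaryocyte markers summed to an FPKM of 65.3 in naive neutrophils, where 9 reached 1, and to 1.52 to 17.3 elsewhere. Of the 9 erythroid markers, at most 2 reached an FPKM of 1 in any library, and so did at most 1 of 9 B cell markers, 1 of 9 T and NK cell markers, 3 of 7 dendritic cell markers, 4 of 8 eosinophil and basophil markers and 2 of 8 stromal and endothelial markers. Of these, the eosinophil marker Prg2 was at 28.0 in Ym1- monocytes, 0 in Ym1+ and 0.24 in naive monocytes. The dendritic cell marker Cd209a was at 12.7 in naive monocytes and at most 0.31 elsewhere. S100a8 and S100a9 took 27.7% and 30.0% of all FPKM in LPS and naive neutrophils and at most 2.39% in monocytes, and FPKM summed to 775532 and 711643 in neutrophils and to 536819 to 567382 in monocytes. From the steps between the lowest values, sequencing depth relative to the Ym1+ library was 44.7% to 97.2%.

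The actin genes were among the most abundant messages in all 5 libraries. The 50 genes took 5.47% to 5.99% of all FPKM, a share that differed little between cell types. Without S100a8 and S100a9 in the total, the share was 5.49% to 6.13% in monocytes and 7.84% and 8.52% in LPS and naive neutrophils. In each library 49 of the 50 genes reached an FPKM of 10, and the share of all genes that did was not computed. The exception was Actr3 in Ym1+ monocytes, Actn1 in the other monocytes and Evl in neutrophils. The Ym1+ library listed Actr3 at 0, against 593 to 824 in the other 4, and this 0 was left out as a failed estimate. Of the 50 genes, 24 stayed under a 1.5-fold difference in all 6 pairs of libraries compared, and 14 differed at least 2-fold in at least 1 pair. Neither count was made over all genes, so they do not show whether the list was unusually stable or variable. For scale, naive neutrophils set against naive monocytes passed the 2-fold mark upward for 10.8% of all genes and downward for 42.7%.

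**Figure D1:**
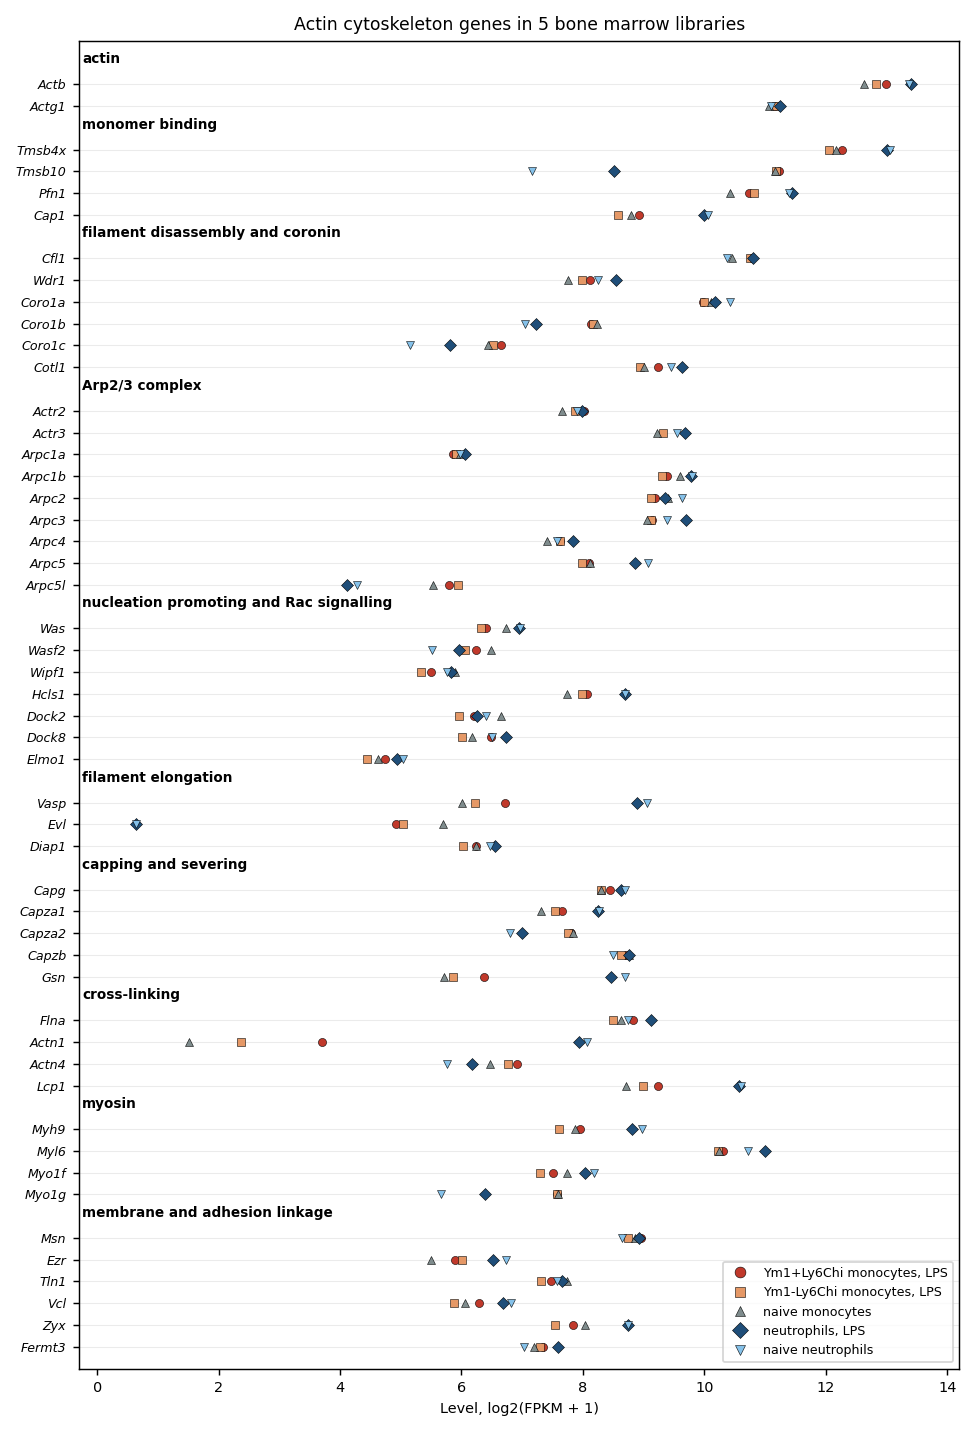
Levels of the 50 actin cytoskeleton genes by role, plotted horizontally as log2(FPKM + 1), 1 symbol per library without replicates, Actr3 in Ym1+ monocytes left out. For most genes the 5 symbols lie close together, while Actn1, Vasp, Gsn and Lcp1 lie to the right in both neutrophil libraries (dark and light blue) and Tmsb10, Evl, Arpc5l and Myo1g to the left.

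Of the actin genes, Actb differed between the cell types on the FPKM scale more than Actg1. Actb, which encodes beta-actin, was the most abundant gene of the list in every library, at an FPKM of 8142 in Ym1+, 7236 in Ym1- and 6328 in naive monocytes and 10831 and 10641 in LPS and naive neutrophils. Actg1, the gene of gamma-actin, had 2294, 2315 and 2140.1 in the same monocyte libraries and 2439 and 2181 in neutrophils, a range of 1.14-fold. With median-of-ratios scaling, in which the typical gene is set equal between libraries, both genes were higher in naive neutrophils than in naive monocytes, Actb by 1.59 and Actg1 by 0.87 in log2, whereas after rescaling to TPM the differences were 0.34 and -0.38. The ratio of Actb to Actg1 was 2.96 to 3.55 in monocytes and 4.44 and 4.88 in LPS and naive neutrophils. The coding sequences of both genes are nearly identical and processed copies exist elsewhere in the genome, so reads may have been split between them.

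Of the genes whose products bind actin monomers, Tmsb10 set neutrophils apart from monocytes. Tmsb4x and Tmsb10 encode the small peptides thymosin beta 4 and thymosin beta 10, which hold monomers in reserve. Tmsb4x had an FPKM of 4951 in Ym1+, 4247 in Ym1- and 4599 in naive monocytes and of 8229.9 and 8474 in LPS and naive neutrophils. Tmsb10 had 2386, 2312 and 2280.2 in the monocytes, but 362 in LPS neutrophils and 142 in naive neutrophils. The FPKM ratio of Tmsb4x to Tmsb10 was thus 1.84 to 2.08 in monocytes, 22.7 in LPS neutrophils and 59.8 in naive neutrophils. Pfn1, the gene of profilin 1, which feeds monomers to growing ends, had 1705, 1809 and 1371 in monocytes and 2768 and 2682 in neutrophils. Cap1, whose product recycles monomers from cofilin, had 487, 381 and 442 in monocytes and 1014 and 1072 in neutrophils.

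The clearest contrast between both cell types lay in pairs of related genes. Actn4 and Actn1 encode alpha-actinins, and Vasp and Evl encode Ena/VASP proteins. Each pair holds listed genes only, so a share of the pair is not a share of the whole family. Actn1 had an FPKM of 1.85 in naive, 4.14 in Ym1- and 12.0 in Ym1+ monocytes, against 243 in LPS and 266 in naive neutrophils. Actn4 ran the other way, with 87.9, 108 and 120.1 in the same monocytes and 70.9 and 53.1 in the neutrophils. Actn1 therefore made up 2.06%, 3.69% and 9.07% of the pair in naive, Ym1- and Ym1+ monocytes and 77.4% and 83.3% in LPS and naive neutrophils. Vasp had 63.1, 73.7 and 104 in naive, Ym1- and Ym1+ monocytes and 474 and 532 in LPS and naive neutrophils. Evl had 50.8, 31.8 and 29.2 in the monocytes and 0.57 and 0.56 in the neutrophils, which are roughly 8 and 10 fragments by the estimate of depth. Vasp and Evl were thus present at similar levels in naive monocytes, with a ratio of 1.24, whereas in neutrophils Vasp was close to the whole of the pair, at 99.9% in both libraries. As both members of a pair come from the same library, these ratios do not depend on how libraries are scaled. Platelet markers summed to an FPKM of 65.3 in naive and 6.97 in LPS neutrophils, and their part in the Actn1 level was not tested.

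**Figure D2:**
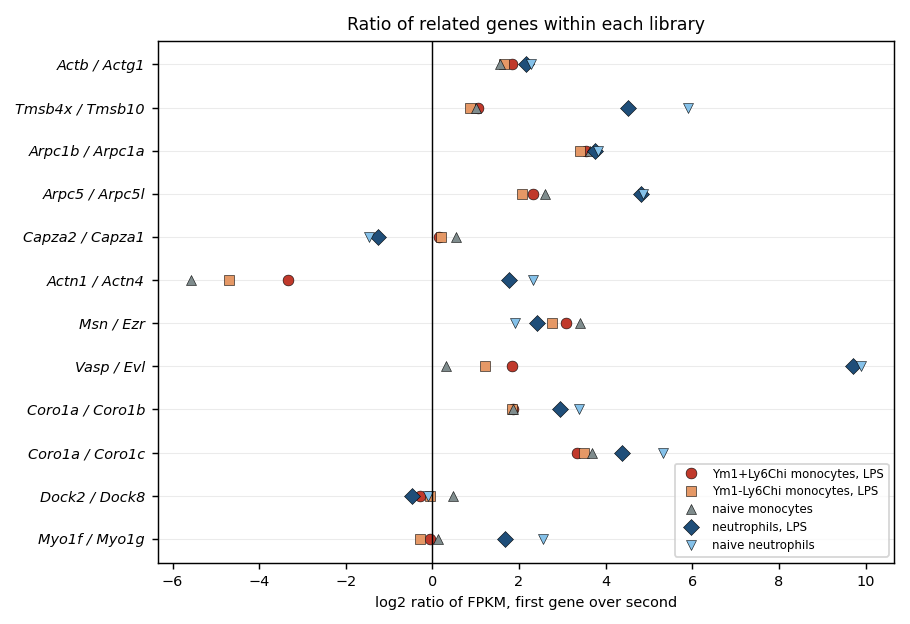
Ratio of related genes within each of the 5 libraries, as log2 of the FPKM of the first gene over that of the second, with 1 symbol per library. The neutrophil libraries (blue) stand apart from the 3 monocyte libraries for Tmsb4x and Tmsb10, Arpc5 and Arpc5l, Capza2 and Capza1, Actn1 and Actn4, Vasp and Evl, Coro1a and both other coronins, and Myo1f and Myo1g, while Arpc1b and Arpc1a keep a similar ratio of 10.6 to 14.3 throughout.

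To show what lies before the start sites of genes with a large contrast, the 250 bases upstream of Actn1, Vasp and Evl are given. They are from RefSeq (build GRCm38.p6, which is not the build of the expression files), 5′ to 3′ on the gene's strand. Capitals mark TTGCNNAA on either strand, letters that resemble the site bound by C/EBP factors of myeloid cells. Of 2 listed starts of Evl, the one with a match is shown. The genes shown all hold a match, whereas the promoters of Tmsb10 and Gsn, whose contrast was also large, hold none.
Actn1 (chr12:80260364-80260613, minus strand): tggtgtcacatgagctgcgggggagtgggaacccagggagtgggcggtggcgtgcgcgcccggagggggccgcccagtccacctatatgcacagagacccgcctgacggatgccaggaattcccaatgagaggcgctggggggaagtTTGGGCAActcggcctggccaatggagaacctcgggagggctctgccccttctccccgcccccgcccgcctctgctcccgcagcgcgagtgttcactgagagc
Vasp (chr7:19271855-19272104, minus strand): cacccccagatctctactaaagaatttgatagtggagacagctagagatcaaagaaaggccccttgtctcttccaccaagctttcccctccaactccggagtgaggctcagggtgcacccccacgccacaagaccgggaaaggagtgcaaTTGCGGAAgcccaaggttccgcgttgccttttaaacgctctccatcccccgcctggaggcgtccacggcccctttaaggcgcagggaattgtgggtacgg
Evl (chr12:108605516-108605765, plus strand): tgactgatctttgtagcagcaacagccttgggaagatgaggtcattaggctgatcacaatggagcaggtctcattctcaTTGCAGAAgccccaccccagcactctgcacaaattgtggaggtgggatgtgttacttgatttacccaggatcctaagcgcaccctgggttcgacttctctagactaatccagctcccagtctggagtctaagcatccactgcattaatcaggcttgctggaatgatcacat
The match begins 103 bases before the start of Actn1, 100 before that of Vasp and 171 before that of Evl. Promoters of 300 bases (250 before and 50 after each start) were at hand for 45 of the 50 genes, the others being Actb, Coro1b, Cotl1, Arpc5l and Diap1. TTGCNNAA was found in 7 of the 45 (15.6%) and in 12.2% of the 27025 genes with a promoter, so the list is close to the background, and the match is shared by genes that were high and low in neutrophils. The CArG box, bound by serum response factor, a known regulator of actin genes, was found in 4 of 45 (8.89%) against 1.81% of the 27025 genes. These 4 are shown with up to 10 bases on each side and the box in capitals.
Actg1 (chr11:120348566-120348595, minus strand): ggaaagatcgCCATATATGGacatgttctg
Vcl (chr14:20929161-20929190, plus strand): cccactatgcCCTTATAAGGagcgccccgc
Arpc4 (chr6:113377863-113377882, plus strand): CCTAATTTGGtgcccaacct
Myl6 (chr10:128493040-128493069, minus strand): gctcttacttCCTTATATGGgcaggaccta
The box lies 90 bases before the start of Actg1, 227 before that of Vcl, 250 before that of Arpc4, where the window ends, and 50 before that of Myl6. The SP1-type letters GGGCGG were found in 34 of 45 genes (75.6%) against 38.2% of the 27025 genes. GAGGAA, found in many PU.1 sites, was found in 12 of 45 (26.7%) against 31.3%. The 27025 genes were not filtered by expression, so they are an unlike background for a list of mostly well expressed genes. None of the matches printed overlapped a match to the other letters searched. A match describes letters only, and none was tested for binding.

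Among filament severing and capping genes, gelsolin was the one that differed most. Gsn, which encodes gelsolin, a calcium-dependent protein that cuts and caps filaments, had an FPKM of 51.3 in naive, 57.3 in Ym1- and 81.7 in Ym1+ monocytes and of 352 and 411 in LPS and naive neutrophils. The neutrophil libraries lay above all monocyte libraries, with Ym1+ monocytes highest among the latter. Capzb, the beta subunit of the capping protein, stayed within 359.8 to 435 in all 5 libraries. Its alpha subunit comes from Capza1 or Capza2, and the balance differed. Capza1 had 157, 186 and 199.7 in naive, Ym1- and Ym1+ monocytes and 304 and 306 in LPS and naive neutrophils. Capza2 had 229, 215 and 224 in the monocytes and 127 and 110.2 in the neutrophils, so Capza2 exceeded Capza1 1.12- to 1.45-fold in monocytes while Capza1 exceeded Capza2 2.39- and 2.77-fold in neutrophils. Capg, a related capping gene, had 313 to 412.

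For cofilin and the main coronin the position of neutrophils depended on the scale, while Coro1b was lower in neutrophils on all 3 scales used. Cfl1, the gene of cofilin 1, had an FPKM of 1757, 1732 and 1396 in Ym1+, Ym1- and naive monocytes and 1782 and 1328 in LPS and naive neutrophils, so that the naive library of either cell type was lower than the LPS library. Coro1a, the coronin of leukocytes, had 1011, 1023 and 1099 in monocytes and 1153 and 1378 in neutrophils. Coro1b had 279, 287 and 301 in Ym1+, Ym1- and naive monocytes and 149 and 131 in LPS and naive neutrophils. Coro1c had 100.0, 90.3 and 85.2 in the monocytes and 55.3 and 34.7 in the neutrophils. Between naive neutrophils and naive monocytes, the log2 difference of Cfl1 was -0.07 on the FPKM scale, -0.48 after TPM and 0.77 after median-of-ratios scaling, and that of Coro1a was 0.33, -0.08 and 1.17. The ratio of Coro1a to Coro1c ran from 10.1 in Ym1+ monocytes to 39.8 in naive neutrophils. Wdr1, a cofactor of cofilin, had 215 to 277 in monocytes and 304 to 372 in neutrophils, and Cotl1, a cofilin-related filament binder, 491 to 599 and 700.1 to 789.

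Most subunits of the Arp2/3 complex had similar FPKM in all libraries, while both forms of its smallest subunit differed. With median-of-ratios scaling 6 of the 9 genes were at least 2-fold higher in naive neutrophils than in naive monocytes. On that scale so were 30 of the 50 actin genes and 22.3% of all genes. After rescaling to TPM 0 of the 9 were at least 2-fold higher (8.37% of all genes) and 1 was lower (55%). On the TPM scale 8 of the 9 were below 0, with a median of -0.17 against -1.15 over all genes. Arpc1b, its most abundant measured subunit by mean level, had an FPKM of 668, 629 and 772 in Ym1+, Ym1- and naive monocytes and of 882 and 884 in LPS and naive neutrophils. Actr2, Arpc1a, Arpc1b, Arpc2, Arpc3 and Arpc4 each stayed within 1.15- to 1.57-fold over the 5 libraries. Arpc5 and Arpc5l encode alternative forms of the smallest subunit. Arpc5 had 272, 253 and 275 in Ym1+, Ym1- and naive monocytes and 464 and 537 in LPS and naive neutrophils, whereas Arpc5l had 54.7, 60.7 and 45.3 in the monocytes and 16.4 and 18.4 in the neutrophils. Arpc5 was 4.18 to 6.07 times the level of Arpc5l in monocytes and 28.3 and 29.2 times in neutrophils. By contrast Arpc1b, the leukocyte form of another subunit, was 10.6 to 14.3 times the level of Arpc1a in all 5 libraries.

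Genes upstream of the Arp2/3 complex had lower FPKM, and none of the 7 was 2-fold apart on that scale in any pair of libraries. Hcls1, the cortactin relative of blood cells, had an FPKM of 267, 253 and 212 in Ym1+, Ym1- and naive monocytes and 413 and 414 in LPS and naive neutrophils. Was, the gene mutated in Wiskott-Aldrich syndrome, had 78.6 to 106 in monocytes and 123 to 124 in neutrophils, and Wipf1, whose product holds WASP in place, 39.3 to 58.2 over all libraries. Wasf2, a WAVE family gene, had 65.5 to 88.4 in monocytes and 44.8 and 61.5 in naive and LPS neutrophils. Dock2 and Dock8, which activate Rac and Cdc42, had 61.1 to 99.3 and 63.6 to 105, and Elmo1, a Dock partner, 20.8 to 31.9. The formin gene Diap1 had 64.4 to 92.3.

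On the FPKM scale Lcp1, Ezr and the myosin genes also separated neutrophils from monocytes. After rescaling to TPM, the cell types overlapped for Myo1f, as they did for Vcl. Lcp1, which encodes the leukocyte bundling protein L-plastin, had an FPKM of 416 in naive, 506 in Ym1- and 604 in Ym1+ monocytes and of 1513 and 1549.97 in LPS and naive neutrophils. Flna, the gene of filamin A, did not separate the cell types on the FPKM scale, at 361 to 453 in monocytes and 428 and 558 in naive and LPS neutrophils. Myl6, a light chain of non-muscle myosin II, had 1266, 1194 and 1206 in Ym1+, Ym1- and naive monocytes and 2050.2 and 1681 in LPS and naive neutrophils. Its heavy chain gene Myh9 had 247, 194 and 233 in the monocytes and 449.7 and 502 in the neutrophils. Of the class I myosins of leukocytes, Myo1g had 189.7, 189.96 and 193 in monocytes and 82.2 and 49.5 in neutrophils, while Myo1f had 155 to 211 and 262 to 289. Msn, which encodes the ERM protein moesin, had 399 to 496 throughout. Ezr, the gene of its relative ezrin, had 58.5, 63.1 and 44.0 in Ym1+, Ym1- and naive monocytes and 90.7 and 106 in LPS and naive neutrophils. Tln1 (talin 1) and Fermt3 (kindlin-3), which activate integrins, had 157 to 212 and 130.4 to 192, with the cell types overlapping. Vcl (vinculin) had 57.5 to 77.1 in monocytes and 102 to 112 in neutrophils, and Zyx (zyxin) 185 to 262 and 427 in both neutrophil libraries.

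Set against all genes, the actin genes stood high in neutrophils. Between naive neutrophils and naive monocytes, 7 of the 50 genes were at least 2-fold higher, against 10.8% of the 10944 genes that reached an FPKM of 1 in one of these libraries, and 7 were at least 2-fold lower, against 42.7%. The higher genes were Actn1 (difference in log2(FPKM + 1) of 6.55), Vasp (3.06), Gsn (2.98), Lcp1 (1.90), Cap1 (1.28), Ezr (1.25) and Myh9 (1.10). The lower ones were Evl (-5.05), Tmsb10 (-4.00), Myo1g (-1.94), Coro1c (-1.27), Arpc5l (-1.26), Coro1b (-1.19) and Capza2 (-1.05). The median difference was 0.28 over the actin genes and -0.79 over all genes, and 42 of the 50 lay above the latter. Because that general shift of -0.79 largely goes away with median-of-ratios scaling (median -0.03), directions need this reference. On that scale 30 of the 50 genes were at least 2-fold higher (22.3% of all genes) and 3 were lower (24.2%), namely Tmsb10, Evl and Myo1g, while Coro1b, Coro1c, Arpc5l and Capza2 stayed negative at -0.35, -0.45, -0.44 and -0.21. After rescaling to TPM 4 were higher (8.37% of all genes) and 9 lower (55%), with Vasp, Gsn, Actn1 and Lcp1 as the higher genes. With genes filtered at an FPKM of 1, the median of the actin genes lay 1.03 to 1.15 above that of all genes on these 3 scales. In bulk RNA such as this, a difference in transcripts per cell cannot be told apart from a difference in total RNA per cell.

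**Figure D3:**
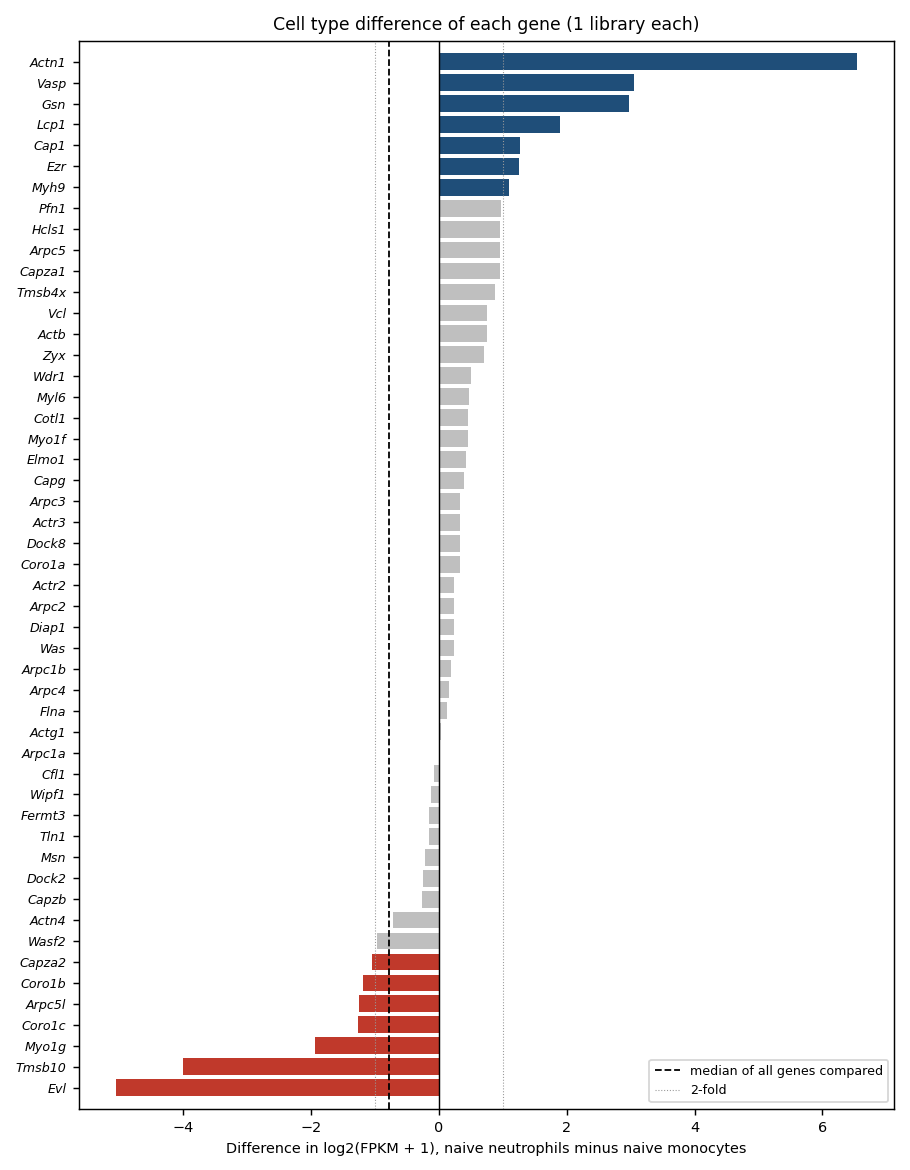
Difference in log2(FPKM + 1) between naive neutrophils and naive monocytes for each of the 50 genes, 1 library each, with genes at least 2-fold higher in dark blue and at least 2-fold lower in red. The dashed line is the median of all genes compared (-0.79), and 42 of the 50 bars end to its right.

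A like contrast was seen between LPS neutrophils and Ym1+ monocytes. Of 49 genes with a usable value, 5 were at least 2-fold higher (9.53% of 10520 genes) and 4 lower (36.4%), with a median of 0.30 against -0.66 over all genes. Actn1 (4.23), Vasp (2.17), Gsn (2.09), Lcp1 (1.32) and Cap1 (1.06) were higher, and Evl (-4.27), Tmsb10 (-2.72), Arpc5l (-1.68) and Myo1g (-1.20) were lower. With median-of-ratios scaling 25 were higher (19.3%) and 2, Tmsb10 and Evl, were lower (18.1%). After rescaling to TPM 3 were higher (6.6%) and 8 lower (54.1%). Taking all 5 libraries, both neutrophil libraries lay above all 3 monocyte libraries for 28 of the 50 genes (56.0%, against 17.3% of all genes) and below them for 9 (18.0%, against 59.5%), a count added after the data were seen. After rescaling to TPM these were 14 (10.5% of all genes) and 19 (68.3%), and with median-of-ratios scaling 41 (35.3%) and 5 (36.1%). For 14 genes the neutrophils were above on all 3 scales, FPKM, TPM and median of ratios. They are Tmsb4x, Pfn1, Cap1, Arpc5, Hcls1, Vasp, Capza1, Gsn, Actn1, Lcp1, Myh9, Myl6, Ezr and Zyx. For 5 genes, Tmsb10, Coro1b, Arpc5l, Evl and Myo1g, they were below on all 3 scales, and for the other 31 the position depended on the scale.

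Between Ym1+ and Ym1- monocytes, which address the difference between the subsets after LPS, 2-fold differences were rare among actin genes and all genes alike. A single gene of 49 differed at least 2-fold, against 1.38% of 10489 genes higher and 1.18% lower. This was Actn1, at 12.0 FPKM in the former and 4.14 in the latter, a difference in log2(FPKM + 1) of 1.34. At the estimated depth these levels stand for roughly 370 and 57 fragments, with 95% Poisson intervals of the FPKM, for counting error only, of 10.8 to 13.3 and 3.14 to 5.36. The next differences were smaller, 0.50 for Gsn, 0.50 for Vasp, 0.47 for Dock8 and 0.42 for Vcl. Of the 49 genes 40 were above 0, a count not made over all genes, and 45 lay above the median of all genes. The median was 0.15 against -0.06 over all genes, whose upper quartile was 0.14. Of the neutrophil markers, 9 of 12 exceeded the Ym1- level at least 2-fold and 0 lay 2-fold below it, among the former S100a8 at 7993 against 1107, while Retnlg was at 13.7 against 10.6. Whether neutrophil RNA in the Ym1+ library has a part in its Actn1, Gsn and Vasp levels was not tested.

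LPS itself went with small differences in monocytes. Between Ym1- and naive monocytes, both Venus-, none of the 50 genes differed 2-fold on the scale of log2(FPKM + 1), against 2.86% of 10714 genes higher and 4.72% lower, and the median was -0.06 (-0.00 over all genes). Actn1, at 4.14 against 1.85, had the largest difference (0.85), which passed 2-fold with a pseudocount of 0.1 (1.12). Its 95% Poisson interval in naive monocytes ran from 1.29 to 2.56, below that of Ym1- monocytes. Dock2 was at 61.1 against 99.3 (-0.69) and Evl at 31.8 against 50.8 (-0.66). By role, 6 of the 7 genes upstream of the Arp2/3 complex were below 0, with a median of -0.42, and Wipf1 (-0.55), Wasf2 (-0.43) and Was (-0.42) followed Dock2 within this group. Both actin genes and 3 of the 4 cross-linking genes were above 0. The shares of all genes above and below 0 were not computed. Groups this small, chosen with earlier results known, do not show whether LPS acts by role. Between Ym1+ and naive monocytes, in which LPS and the Venus gate change together, 1 of 49 genes was at least 2-fold higher (2.59% of all genes) and none lower (4.51%). This was again Actn1 (2.19), followed by Evl (-0.78), Vasp (0.72) and Gsn (0.66). The comparison shares the naive library with the previous one, so the values are given side by side only.

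In neutrophils LPS went with a higher level of Tmsb10. It had an FPKM of 362 after LPS and 142 without, a difference in log2(FPKM + 1) of 1.35, and was the 1 gene of 49 that was at least 2-fold higher, against 8.96% of 9583 genes. None was lower (5.35% of all genes). Evl, under an FPKM of 1 in both libraries, was not compared. The median was 0.06, and 0.07 over all genes. The next were Myo1g (82.2 against 49.5, 0.72) and Coro1c (55.3 against 34.7, 0.66), which together with Tmsb10 were 3 of the genes that were lower in neutrophils than in monocytes. In Ym1- monocytes the LPS differences of these genes were 0.02 for Tmsb10, -0.02 for Myo1g and 0.08 for Coro1c. The 12 monocyte markers summed to an FPKM of 2008 in LPS and 1716 in naive neutrophils, mostly Ly6c2 at 1613 and 1377, while F13a1 was at 10.7 and 3.87. Their part in the LPS difference was not tested. The genes that were most raised in neutrophils over monocytes hardly differed after LPS, with -0.13 for Actn1, -0.17 for Vasp, -0.22 for Gsn and -0.03 for Lcp1.

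**Figure D4:**
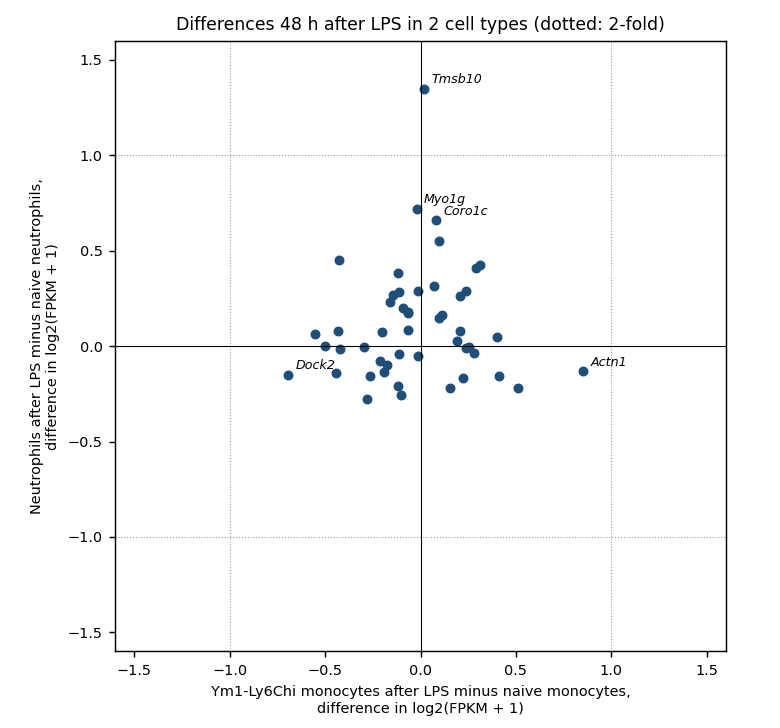
Difference in log2(FPKM + 1) after LPS in Ym1-Ly6Chi monocytes (horizontal axis) and in neutrophils (vertical axis) for the 49 genes compared in both, 1 library per condition, with genes at least 1.5-fold apart named. Tmsb10 lies above the 2-fold line for neutrophils (1.35) and near 0 for monocytes (0.02), and no gene lies past the 2-fold lines for monocytes.

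A wider list of 116 other genes of the actin system, among them kinases, formins, tropomyosins and adhesion proteins, held 113 that were measured. Between naive neutrophils and naive monocytes 20 of 94 compared were at least 2-fold higher (10.8% of all genes) and 22 lower (42.7%), with a median of 0.10, and 40 were higher (22.3%) and 12 lower (24.2%) with median-of-ratios scaling. Rhoc, a GTPase gene at 29.4 in naive neutrophils, was listed at 0 in naive monocytes and left out there by the rule on zeros, although it was also low in Ym1- (0.75) and Ym1+ (0.11) monocytes. Fmnl2, a formin gene, had an FPKM of 23.6 in naive neutrophils and 0.78 in naive monocytes, and Cyfip2, a WAVE complex gene, 158 against 13.8. The formin gene Inf2 had 1.12 against 21.1 and the exchange factor gene Dock10 had 5.27 against 62.1. Rac2, the Rac GTPase of blood cells, named here after its values were seen, had 883 against 254. Between LPS neutrophils and Ym1+ monocytes 12 of 95 were higher (9.53% of all genes) and 19 lower (36.4%), and 38 (19.3%) and 10 (18.1%) with median-of-ratios scaling, with Cyfip2 at 243 against 21.4, Rhoc at 15.8 against 0.11, Inf2 at 1.21 against 23.9 and Aif1 at 1.23 against 18.9.

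The other comparisons stayed within a cell type, where fewer of all genes were 2-fold apart as well. Between Ym1+ and Ym1- monocytes 1 of 93 was at least 2-fold higher (1.38% of all genes), the atypical GTPase gene Rhou at 9.57 against 3.92, named after its values were seen, and none was lower (1.18%). Between Ym1- and naive monocytes 2 of 94 were higher (2.86% of all genes) and 7 lower (4.72%). Rhou had 3.92 against 13.5 and the GTPase gene Rhob 15.7 against 43.0, while Tes, which encodes a zyxin-like adhesion protein, had 20.2 against 7.88 and Marcksl1 had 30.3 against 12.7. Between Ym1+ and naive monocytes 3 of 92 were higher (2.59%) and 4 lower (4.51%), or 2 and 2 with median-of-ratios scaling, with Tes at 20.9, Marcksl1 at 28.8, the cofilin kinase gene Limk1 at 4.59 against 12.97 and Parvb at 7.44 against 19.8. In neutrophils 3 of 93 were higher after LPS (8.96% of all genes) and 4 lower (5.35%). Fmnl2 was at 1.46 after LPS and 23.6 without, and Tagln2, which encodes an actin-bundling protein, had 255 after LPS and 87.6 without, while its level in the monocyte libraries was 446 to 615.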

How the data were processed

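RNA-seq libraries of sorted BM cells were analysed, 1 for each of 5 conditions taken from the sample labels. Each library came as a table that the authors deposited in FPKM, 1 value per symbol. TopHat2 2.0.8, Cufflinks 2.1.1 and mm9 stand in the submitters' processing notes, while annotation, options and read numbers were not given in the sources used here. As FPKM holds no counts, a count model could not be applied. Differences of log2(FPKM + 1) were taken in 6 pairs of libraries, for genes reaching an FPKM of 1 in one of the pair, and those 2-fold or more apart were counted. The pseudocount understates differences of low genes. A 0 in a library was left out where the gene reached an FPKM of 10 in another, for the actin genes (Actr3) and the wider list (Rhoc) only, although such a 0 can be true absence. The ratio that recurred most among low values gave the relative depth, and fragment numbers are rough, resting on GENCODE transcript lengths. The members, role groups and gene lists were chosen with earlier results of these data known. Named are the most abundant gene of each of the 10 role groups, every gene at least 2-fold apart in any pair, the genes of 12 pairs of related genes and up to 4 genes per pair of libraries from the wider list. Other genes are given mostly by range. Python 3.11.15, numpy 2.4.6, pandas 2.3.3, scipy 1.17.1 and matplotlib 3.10.9 were used, and the steps were tested on simulated data. The alternatives changed the pseudocount, the filter, the scaling (TPM or median of ratios) or the threshold (1.5-fold), or kept listed zeros. Member symbols were matched to RefSeq promoters by symbol.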

Additional observations from a re-analysis of the deposited data

How the results depend on the processing

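No paired analysis was possible because each condition has 1 library and no result comes from a test. No gene at least 2-fold apart on the FPKM scale changed direction after TPM or median-of-ratios scaling. The pseudocount, filter and threshold cannot reverse a direction. Of the genes 2-fold apart on any of the 3 scales, 11 changed sign between scales for naive neutrophils against naive monocytes, among them Actn4 and Coro1a, and 8 for LPS neutrophils against Ym1+ monocytes, among them Actb, a count added after the data were seen. Without a filter and with an FPKM of at least 5, the medians and counts of the actin genes stayed close to those reported. Without a filter the median over all genes was 0 in each pair. For naive neutrophils against naive monocytes, the median of 0.28 over the actin genes then stood against 0 rather than -0.79. With a pseudocount of 0.1, 1 gene was at least 2-fold higher in Ym1- than in naive monocytes. Scaling moved most values between cell types. After rescaling to TPM the median for naive neutrophils against naive monocytes was -0.12, with 4 genes higher, and for LPS neutrophils against Ym1+ monocytes it was -0.19, with 3 higher and 8 lower, while the LPS medians were -0.14 in Ym1- monocytes and -0.058 in neutrophils. With median-of-ratios scaling the medians were 1.12 (30 higher, 3 lower) and 1.05 (25 higher, 2 lower) between the cell types, and 0.21 for Ym1+ against Ym1- monocytes. Over all genes the share higher among those at least 2-fold apart was 20.2% on the FPKM scale, 13.2% after TPM and 48.0% after median-of-ratios scaling for naive neutrophils against naive monocytes, and 20.8%, 10.9% and 51.7% for LPS neutrophils against Ym1+ monocytes. With the listed 0 of Actr3 kept, 1 gene was lower in Ym1+ monocytes than in Ym1- and 1 than in naive monocytes. At 1.5-fold, 1 gene was higher and 2 lower in Ym1- monocytes against naive ones, and 3 and 1 in Ym1+ monocytes. In neutrophils after LPS 3 were higher and 0 lower. Between the cell types, 15 were higher and 9 lower in naive neutrophils against naive monocytes. For LPS neutrophils against Ym1+ monocytes, 14 were higher and 8 lower. Shares over all genes at 1.5-fold were not computed. Medians were compared with the 95% binomial interval of the median over the genes. This interval treats the genes as independent and does not measure variation between libraries or animals. Depth limits Evl in neutrophils and Actn1 in naive and Ym1- monocytes.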
